A study of Rattus norvegicus with 31 samples.

Results

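The genes described here are 9 enzymes and regulators of fatty acid handling in rat testis: the desaturases Fads1, Fads2 and Scd, the elongases Elovl5 and Elovl6, the acyl-CoA synthetases Acsl1, Acsl3 and Acsl4, and G0s2, an inhibitor of triglyceride lipolysis. They were found by gene symbol among 14217 genes named on an Affymetrix rat genome array, and are read by 13 of its 31042 probe sets other than controls. Where a gene had several probe sets, its main one was selected on the highest mean over all arrays. The 9 genes themselves were chosen with earlier results of these data in view, so their differences between treatments are descriptions, given with the fit over all probe sets, and no test is made on the list.

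All rats were LBNF1 males aged 25 to 27 weeks whose lower abdomen had been irradiated with 6 Gy, and total RNA of whole testes was measured. Sham treatment was given in 14 arrays. Hormone ablation, a GnRH antagonist together with the androgen receptor antagonist flutamide, was given in 11 arrays. Ablation plus estradiol was given in 6 arrays, whose label also speaks of FSH supplementation and gives no name for the androgen receptor antagonist. The 6 estradiol arrays were deposited later than the other 25, so estradiol and the deposit cannot be told apart. The labels call every array a biological replicate. Of the sham arrays, 10 are described as control and 4 as irradiated testes, although all 14 are titled as irradiated. No group without irradiation was analysed here.

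Mammals make long polyunsaturated fatty acids from dietary linoleic and alpha-linolenic acid by alternating desaturation and elongation. Fads2 introduces the first double bond, Elovl5 adds carbons, and Fads1 introduces the next double bond to give arachidonic and eicosapentaenoic acid. The testis is rich in such fatty acids, which are found in the phospholipids of germ cells and Sertoli cells. Scd makes monounsaturated fatty acids from saturated ones, and Elovl6 lengthens saturated and monounsaturated chains. Long-chain acyl-CoA synthetases couple fatty acids to coenzyme A, which commits them to lipid synthesis, remodelling or oxidation, and Acsl4 prefers arachidonic acid. G0s2 binds and inhibits the lipase Pnpla2, which starts the breakdown of stored triglyceride.

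Fads1, Fads2 and G0s2 were called against sham under every setting tried, so the sequences before their annotated starts are shown, from RefSeq on build GRCr8. Promoter windows were matched for 8 of the 9 genes, and Elovl6 was the member without an entry. Each line holds the bases of the 250 before the start in the table that lie outside the annotated span of the gene, 5′ to 3′ on the gene's own strand. Capitals mark a CCAAT box (CCAAT) or a GC box (GGGCGG) on either strand.
Fads1, chr1:216252442-216252604, plus strand: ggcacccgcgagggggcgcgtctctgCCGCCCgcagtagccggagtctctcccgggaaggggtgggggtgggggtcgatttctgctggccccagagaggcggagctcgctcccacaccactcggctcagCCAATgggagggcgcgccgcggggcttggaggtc
Fads2, chr1:216172191-216172283, minus strand: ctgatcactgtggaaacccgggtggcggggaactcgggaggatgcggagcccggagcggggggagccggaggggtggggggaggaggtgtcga
G0s2, chr13:107335949-107336198, minus strand: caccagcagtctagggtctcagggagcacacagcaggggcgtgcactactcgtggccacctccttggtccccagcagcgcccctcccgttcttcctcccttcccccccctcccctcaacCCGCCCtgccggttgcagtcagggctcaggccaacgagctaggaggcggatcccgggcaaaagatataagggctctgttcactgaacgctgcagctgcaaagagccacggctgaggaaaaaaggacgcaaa
Fads1 and Fads2 lie on the same chromosome and are read in opposite directions. The Fads1 window held a GC box that begins 224 bases before the start and a CCAAT box that begins 121 bases before it. The Fads2 window held a GC box 99 bases before the start, within the annotated span and so not printed, and no CCAAT box. The G0s2 window held a GC box 131 bases before the start. Windows of members whose main probe set was not called held such boxes too. GC boxes were in those of Acsl3 and Acsl4, and CCAAT boxes in those of Elovl5, Acsl1 and Acsl3. Of 33469 RefSeq windows of this length, 34% held a CCAAT box and 30.5% a GC box. The sterol regulatory element TCACNCCAC, searched on both strands, was in 0.974% of windows and in no member's window. The Scd and Acsl1 windows lay wholly within the annotated span of the gene, and Elovl6 had no window to search. The cAMP response element TGACGTCA, a palindrome, was in 1.59% of windows and, among the members, in that of Elovl5. These matches describe letters in a window.

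The values are Affymetrix MAS5 signals that the authors deposited on a logarithmic scale, read here as log2. Array medians lay between -1.44 and -1.24. The filter level below means the 40th percentile of an array, which lay between -1.93 and -1.75. Probe sets above it in 6 or more arrays were tested. Of the 13 member probe sets, 11 passed, among them the main one of every member. Levels of different probe sets are not compared with each other, since each probe set has its own response. Markers of spermatids were above the array median in sham arrays 6 and 7 and ablation array 4, and no member's call changed without these arrays.

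With hormone ablation, the desaturases Fads1, Fads2 and Scd and the lipase inhibitor G0s2 were lower than with sham treatment, by 2.31-fold for Fads2, 3.02-fold for Fads1 and 4.47-fold for G0s2, and no member was called higher. The size for Scd is less certain, since it was above the filter level in 12 of 14 sham, 2 of 11 ablation and 1 of 6 estradiol arrays. Scd was thus tested only through the sham arrays, where it is high. Its call was lost when only the 4 sham arrays described as irradiated were used. The main probe sets of the elongases and acyl-CoA synthetases did not pass the threshold, an adjusted p under 0.05 in limma over 21269 probe sets. Thus 4 of 9 members, Scd among them with the limit above, were called lower and 0 higher, also 0 at an unadjusted p under 0.05. Across the array, 10.3% of probe sets were lower and 9.15% higher, or 12.8% and 9.23% of 11387 genes at 1 probe set each. Nothing about the family is read from the members' share, since the genes were chosen with such results in view. In RNA of whole testis, fewer cells of a type and less RNA per cell cannot be told apart.

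**Figure D1:**
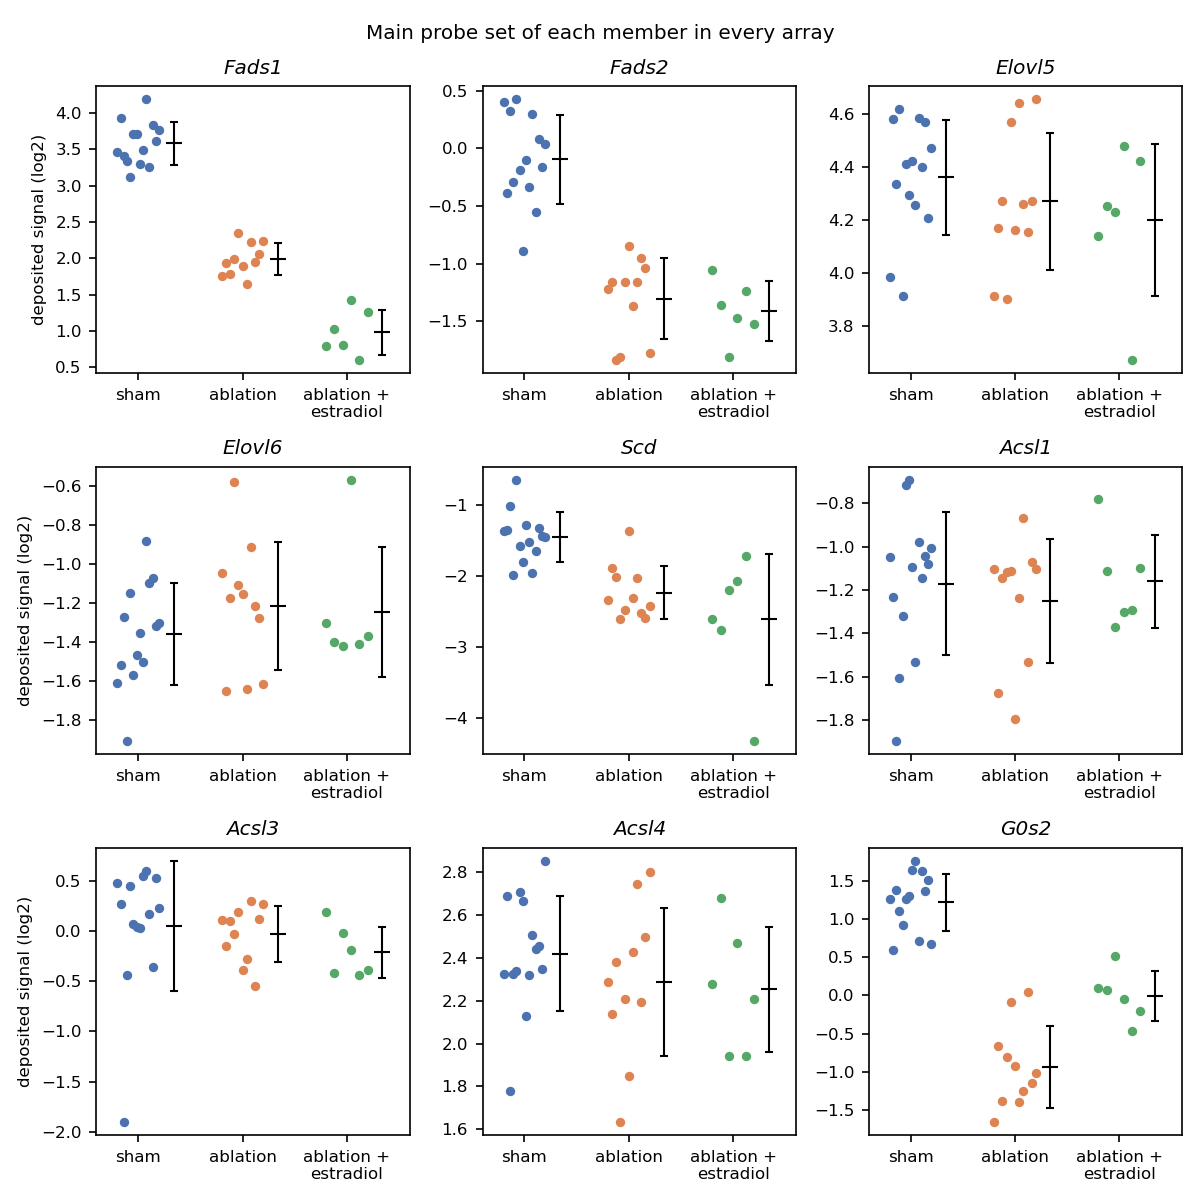
Deposited signal (log2, each panel on its own axis) of the main probe set of each member in every array, by treatment. Points are arrays and the black marks are group means with 1 SD. Fads1 and G0s2 are below all sham arrays in all 11 ablation arrays, and Fads1 is lower again in all 6 estradiol arrays.

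Fads1, the delta-5 desaturase, was lower with ablation and lower again with estradiol. Its signal was 3.12 to 4.19 (median 3.56) in the 14 sham arrays, 1.64 to 2.35 (median 1.94) in the 11 ablation arrays and 0.60 to 1.42 (median 0.91) in the 6 estradiol arrays, all log2. The 3 groups did not overlap. The means were 3.58 ± 0.30, 1.98 ± 0.22 and 0.98 ± 0.31 (SD). Fads1 was 3.02-fold lower with ablation than with sham (log2 change -1.60 ± 0.11 SE, limma adjusted p = 2.85e-14). With estradiol added to ablation it was a further 2.00-fold lower (-1.0 ± 0.14, limma adjusted p = 5.45e-06). Against sham, the estradiol arrays were 6.05-fold lower (-2.60 ± 0.13, limma adjusted p = 8.42e-18).

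Fads2, the delta-6 desaturase that acts earlier in the same pathway, was lower with ablation and did not pass the threshold when estradiol was added. Its signal was -0.89 to 0.43 (median -0.13) in sham arrays, -1.83 to -0.85 (median -1.16) in ablation arrays and -1.81 to -1.05 (median -1.42) in estradiol arrays. Of the 11 ablation arrays, 10 lay below every sham array, and the lowest sham array, replicate 7 at -0.89, overlapped the highest ablation array. The change with ablation was 2.31-fold (-1.21 ± 0.14 SE, limma adjusted p = 1.65e-08). All 6 estradiol arrays lay below every sham array (-1.31 ± 0.17, limma adjusted p = 2.11e-07) and within the range of the ablation arrays. Between estradiol and ablation the difference was -0.11, with a 95% interval of -0.46 to 0.25 and an adjusted p of 0.818 in limma. Fads2 was above the filter level in 14 of 14 sham, 10 of 11 ablation and 6 of 6 estradiol arrays. Its ablation and estradiol signals lay close to that level, which limits how far a further fall with estradiol could be read. This was not tested.

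The distance between Fads1 and Fads2 within each array restates these values array by array, and was chosen after they had been seen, so it is described without a test. Fads1 minus Fads2 was 3.67 ± 0.49 (SD, n = 14) in sham arrays, 3.29 ± 0.41 (n = 11) in ablation arrays and 2.39 ± 0.46 (n = 6) in estradiol arrays, all log2. Only differences between groups in this quantity can be read, not its size. On average it changed by -0.90 from ablation alone to estradiol. The ranges were 1.84 to 2.89 with estradiol and 2.74 to 4.01 with ablation alone. From sham to ablation it changed by -0.39, with ranges that overlapped more widely (2.69 to 4.59 with sham). Fads2 signals close to the filter level with ablation and with estradiol limit how both changes can be read.

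**Figure D2:**
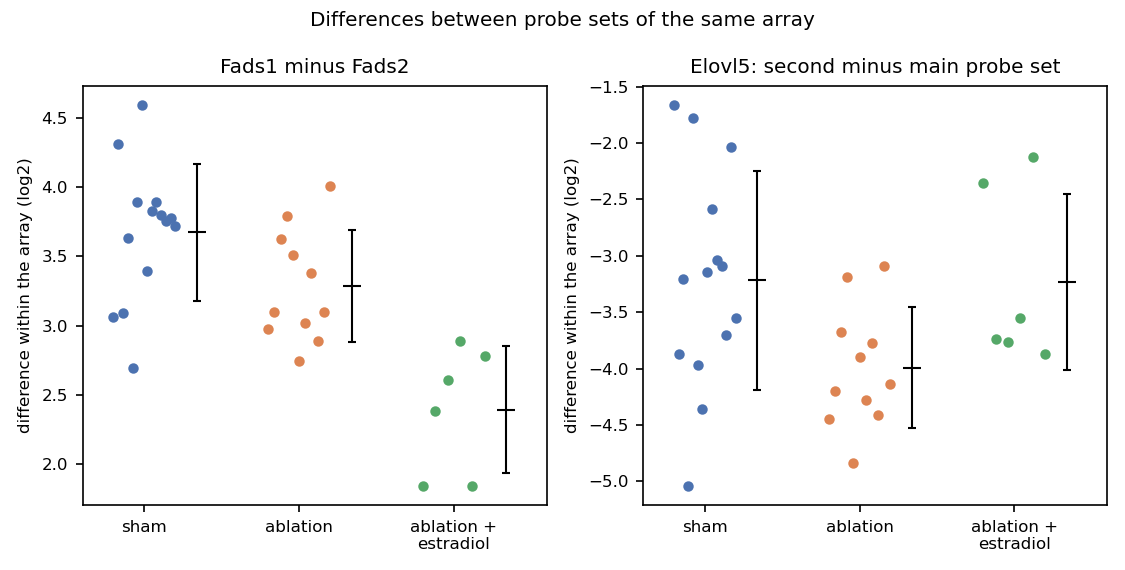
Differences between probe sets of the same array (log2) by treatment. Points are arrays and black marks are means with 1 SD. Fads1 minus Fads2 averages 3.67, 3.29 and 2.39 from sham to estradiol, and the second minus the main Elovl5 probe set averages -3.22 with sham and -3.99 with ablation.

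Scd, the stearoyl-CoA desaturase, was near the filter level in all groups. Its signal was -1.99 to -0.65 (median -1.45) in sham arrays, -2.61 to -1.37 (median -2.35) in ablation arrays and -4.33 to -1.72 (median -2.41) in estradiol arrays. It exceeded the filter level in 12 of 14 sham, 2 of 11 ablation and 1 of 6 estradiol arrays. It was therefore tested only through the sham arrays, where it is high, and the sizes and adjusted p below are descriptions. Scd was lower with ablation (1.72-fold, -0.78 ± 0.20 SE, limma adjusted p = 0.00563), and 9 of 11 ablation arrays lay below every sham array. With each value under the filter level raised to it, the change was -0.34. Against the 4 sham arrays described as irradiated alone the change was -0.77, near the -0.78 with all 14, with an adjusted p of 0.144 in limma. With estradiol it was lower than sham (-1.16 ± 0.25, limma adjusted p = 0.000871, or -0.40 with values raised), where estradiol array 6 at -4.33 stood lowest. Without an array in turn, that change ranged from -1.34 to -0.82. Estradiol and ablation alone differed by -0.38 with a 95% interval of -0.90 to 0.14.

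Elovl5, the elongase between the Fads2 and Fads1 steps, was read by a pair of probe sets that disagreed. The main one was 3.91 to 4.62 (median 4.40) in sham, 3.90 to 4.66 (median 4.26) in ablation and 3.67 to 4.48 (median 4.24) in estradiol arrays. Its change with ablation was -0.09, with a 95% interval of -0.29 to 0.11 (limma adjusted p = 0.589), and with estradiol added -0.07 (-0.33 to 0.19). The second probe set, which the selection did not use, was -0.42 to 2.32 (median 1.20) in sham, -0.54 to 1.18 (median 0.36) in ablation and 0.47 to 1.79 (median 0.74) in estradiol arrays. It was 1.82-fold lower with ablation (-0.87 ± 0.25 SE, limma adjusted p = 0.0104), with 10 of 11 ablation arrays inside the sham range. With the replicate number as a block its adjusted p in limma was 0.0578 (-0.82). When estradiol was added it was 0.69 higher on the log2 scale, which did not pass the threshold (limma adjusted p = 0.239).

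Within each array, the second minus the main Elovl5 probe set averaged -3.22 ± 0.97 (SD, n = 14) with sham and -3.99 ± 0.53 (n = 11) with ablation (log2). Its size cannot be read as a difference in level, and its change of -0.78 between groups was described after the values had been seen, without a test. The ranges overlapped, at -5.04 to -1.66 with sham and -4.83 to -3.09 with ablation. After group means were subtracted, both probe sets correlated at r = -0.39 over the 31 arrays. With the mean of both taken for the gene, the Elovl5 change with ablation was -0.48 (limma adjusted p = 0.0037). Which transcript ends the probe sets cover is not given in the sources used here.

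Elovl6, the elongase of saturated chains, had low signals near the array median. Its main probe set was -1.90 to -0.88 (median -1.33) in sham, -1.65 to -0.58 (median -1.18) in ablation and -1.42 to -0.57 (median -1.38) in estradiol arrays, and the groups overlapped. The change with ablation was 0.14 with a 95% interval of -0.11 to 0.40, and with estradiol added -0.03 (-0.35 to 0.29). Its second probe set was above the filter level in 3 sham, 1 ablation and 0 estradiol arrays and was not tested.

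The 3 acyl-CoA synthetases did not pass the threshold in any comparison. Acsl4, the arachidonate-preferring enzyme, was 1.78 to 2.85 (median 2.39) in sham, 1.63 to 2.80 (median 2.29) in ablation and 1.94 to 2.68 (median 2.24) in estradiol arrays. Its change with ablation was -0.13 (95% interval -0.37 to 0.11) and with estradiol added -0.03 (-0.33 to 0.26). These intervals leave out changes of the size seen for Fads1 and Fads2 with ablation.

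Acsl3, a synthetase of the endoplasmic reticulum and lipid droplets, was -1.90 to 0.60 (median 0.20) in sham, -0.55 to 0.30 (median 0.11) in ablation and -0.44 to 0.19 (median -0.29) in estradiol arrays. Sham array 3 at -1.90 lay far below the next sham array at -0.44. The change was -0.08 with ablation (95% interval -0.44 to 0.29) and -0.26 for estradiol against sham (-0.71 to 0.18). Without sham array 3 the latter was -0.41 and passed the threshold (limma adjusted p = 0.0455). Over the settings tried, its adjusted p in limma ranged from 0.0455 to 0.959.

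Acsl1, a synthetase of fat, liver and muscle, was read by 3 probe sets. The main one was -1.90 to -0.69 (median -1.08) in sham, -1.79 to -0.87 (median -1.12) in ablation and -1.37 to -0.78 (median -1.20) in estradiol arrays. Its changes were -0.08 with ablation (95% interval -0.33 to 0.17) and 0.09 with estradiol added (-0.22 to 0.41). A second probe set changed by -0.26 with ablation (-0.77 to 0.25), and the remaining one stayed under the filter level in all 31 arrays.

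G0s2 was the member with the lowest log2 change with ablation and the member that rose with estradiol. Its signal was 0.60 to 1.76 (median 1.28) in sham, -1.66 to 0.05 (median -1.02) in ablation and -0.47 to 0.51 (median 0.01) in estradiol arrays. The ablation arrays did not overlap the sham arrays, with means of -0.94 ± 0.53 and 1.22 ± 0.37 (SD). G0s2 was 4.47-fold lower with ablation (-2.16 ± 0.16 SE, limma adjusted p = 3.95e-13). With estradiol added it was 1.90-fold higher than with ablation alone (0.93 ± 0.20, limma adjusted p = 0.00283). Of the 6 estradiol arrays, 3 lay above every ablation array, and ablation arrays 5 and 9, at -0.09 and 0.05, reached into the estradiol range. All 6 estradiol arrays stayed below every sham array (2.35-fold, -1.23 ± 0.20, limma adjusted p = 1.18e-05).

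**Figure D3:**
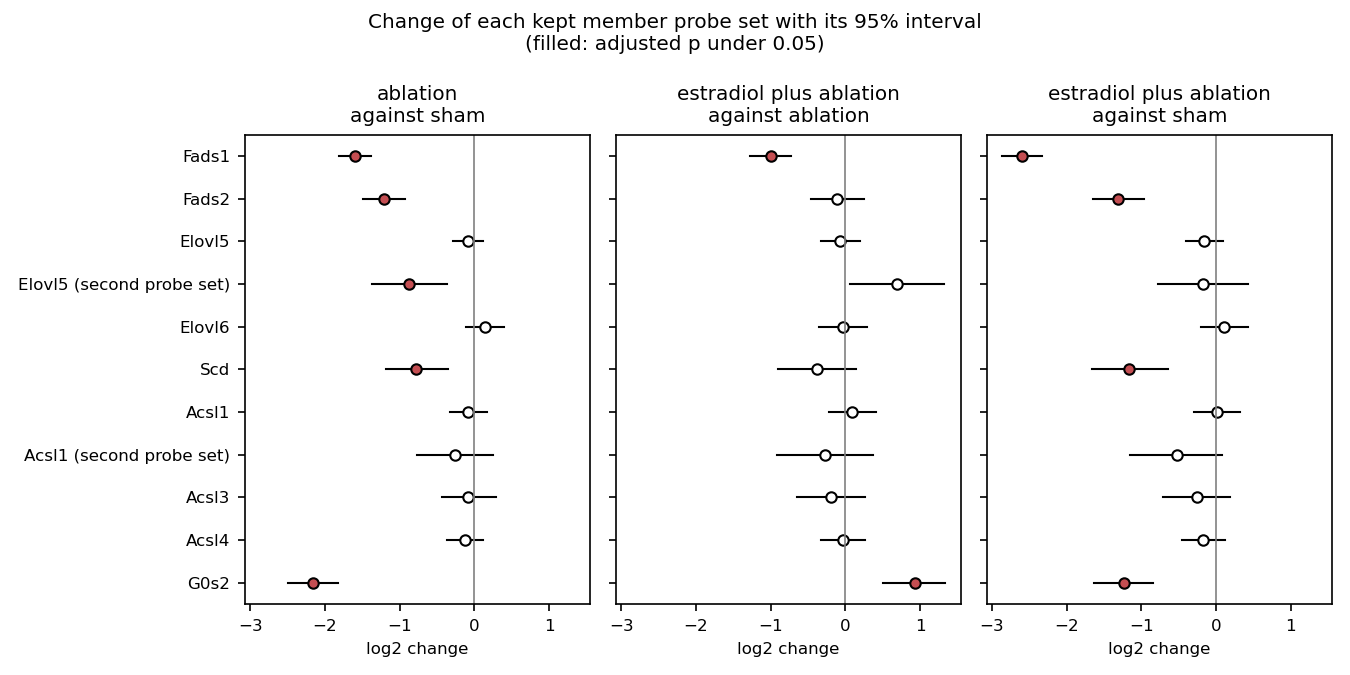
Log2 change of each kept member probe set in the 3 comparisons, with its 95% interval from limma. Filled points have an adjusted p under 0.05. Fads1 lies left of 0 in all panels, while G0s2 is at -2.16, 0.93 and -1.23.

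When estradiol was added to ablation, 1 of 9 members was called lower (Fads1) and 1 higher (G0s2). Across the array, 4.92% of probe sets were lower and 0.592% higher, or 2.73% and 0.729% of genes. Against sham, 4 members were lower with estradiol plus ablation and 0 higher. These counts stand beside 10.4% and 4.15% of probe sets, or 11.9% and 5.28% of genes. Scd, 1 of these 4 members, was tested only through the sham arrays, where it is high. The split over all probe sets moved with the scaling: for estradiol plus ablation against sham it was 882 higher and 2211 lower as deposited, but 1753 and 1963 after quantile normalization. For estradiol against ablation it was 126 and 1047 as deposited and 312 and 988 after quantile normalization. The members' calls were the same under quantile normalization and median centring. The comparisons share arrays, so they are not independent of each other.

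Between the 10 sham arrays described as control and the 4 described as irradiated, a contrast that the choice of genes did not use, no member passed the threshold. Differences of irradiated minus control were 0.05 for Fads1 (95% interval -0.31 to 0.41), -0.07 for Fads2 (-0.52 to 0.38), 0.10 for G0s2 (-0.33 to 0.53) and -0.01 for Scd (-0.47 to 0.45). The others ranged from 0.02 to 0.24 over their probe sets. In limma 0 of 21269 probe sets passed the adjusted threshold (0%), while 513 had an unadjusted p under 0.05.

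Some markers of Leydig cells, which make steroids, were lower in the same comparisons as Fads1. The mean signal of 7 Leydig cell markers was 2.39 to 3.22 in sham, 0.88 to 1.58 in ablation and 0.45 to 1.09 in estradiol arrays (log2). With ablation 5 of the 7 were lower and 2, Hsd3b1 and Lhcgr, higher, and with estradiol added 3 (Insl3, Cyp17a1 and Cyp11a1) were lower still. The other 4, Star, Lhcgr, Hsd3b1 and Hsd17b3, changed by 0.09 to 0.14 with estradiol added and did not pass, and the median over the 7 was 0.09. The summed signal of the 7 on the linear scale had a median of 91.1 in sham, 51.1 in ablation and 57 in estradiol arrays. After group means were subtracted, Fads1 correlated with the mean log2 signal at r = 0.62 over the 31 arrays, Elovl5 at 0.52 and Acsl4 at 0.51. The other members lay between -0.21 and 0.17, with Fads2 at 0.17 and G0s2 at -0.13. The part of these cells in the members' changes was not tested. All 6 macrophage markers and 3 of 5 peritubular markers were also lower with ablation, while 0 of 5 Sertoli cell markers passed in limma (2 were higher at an unadjusted p under 0.05). Marker counts here and in the next paragraph stand beside 12.8% of all genes lower and 9.23% higher with ablation. With estradiol added these shares were 2.73% and 0.729%. The marker lists are short, so their counts are a description. Elovl5 correlated with the Sertoli marker mean at r = 0.67, Fads1 at 0.38 and Fads2 at -0.38. With the endothelial marker mean, Acsl3 correlated at 0.58 and G0s2 at -0.41. The share of all genes with correlations of such size to a marker mean was not counted.

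Fat tissue also expresses several members. Of its markers, Lep, Cidec and Fabp4 were above the filter level in 0 of 31 arrays. Adipoq exceeded it in 6 of 14 sham, 8 of 11 ablation and 4 of 6 estradiol arrays, and 1 of 3 tested adipocyte markers, Cfd, was lower with ablation. Endothelial markers were lower with ablation in 2 of 4 and 3 tested undifferentiated spermatogonium markers were higher. Of these, Sall4 and Ret were above the filter level in 0 of 14 sham arrays and so were tested only through the groups where they are high, while Lin28a, another marker of these cells, did not pass the filter. For spermatocytes 1 of 2 tested markers, Sycp3, was higher. It was above the filter level in 3 of 14 sham and 11 of 11 ablation arrays, and so was tested mainly through the groups where it is high. For spermatids 0 of 3, epididymis 0 of 2 and red blood cells 0 of 2 passed with ablation in limma, also at an unadjusted p under 0.05.

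The members varied among themselves within groups. Over the 36 pairs of main probe sets, correlations after subtracting group means ran from -0.39 to 0.58 with a median of -0.04, and 8 were over 0.3. Acsl1 correlated with Acsl3 and with Acsl4 at r = 0.58 each, and Fads1 with Elovl5 at 0.54. Fads2 and Scd reached 0.29, and Elovl5 and Scd -0.39. These points share arrays and their scaling.

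By the same measure over the 31 arrays, the genes most like Fads1 were Tgoln2 (r = 0.78), Bpnt2 (0.76) and Smarce1 (0.73). Those most like Fads2 were Ergic3 (0.71), Tusc2 (0.65) and Tln1 (0.65). For G0s2 they were Sec61a1 (0.73), Ddah2 (0.71) and Fam20c (0.67), and for Scd Ccl22 (0.73), Prr36 (0.72) and Tdrd12 (0.72). For Elovl5 they were Laptm4b (0.89), Gdi2 (0.85) and Scd2 (0.84), the last being another stearoyl-CoA desaturase. Elovl6 was most like Capn13 (0.65), Bmerb1 (0.56) and Gpr26 (0.55). Acsl1 was most like Sfxn1 (0.79), Phf12 (0.77) and Mapk1ip1l (0.77), Acsl3 like Nkrf (0.91), Wdfy1 (0.85) and Zfp729 (0.84), and Acsl4 like Appbp2 (0.90), Herc2 (0.88) and Ppp1r12a (0.88). None of the 3 genes most like Fads1 passed the threshold in any comparison, with log2 changes with ablation of -0.17, 0.11 and 0.22. Of the genes most like other members, Ergic3 (-0.31), Sec61a1 (-0.34), Ddah2 (-0.67) and Mapk1ip1l (-0.55) were called lower with ablation. The rest were not called with ablation, beside 12.8% of all genes lower. Likeness here concerns variation within groups and not the response to treatment.

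The counts in the lists of other lipid genes that follow stand beside 12.8% of all genes lower and 9.23% higher with ablation, and 2.73% and 0.729% with estradiol added. They cover tested genes only, and some of these, such as Gpam, Gpat2 and Cpt2, were tested mainly through the sham arrays where they are high, so the counts are a description.

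Genes of fatty acid synthesis and NADPH supply changed by -0.41 to 0.13 with ablation (log2). Of the 8 tested, 4 were lower with ablation and 0 higher, with a median log2 change of -0.24 beside 0.001 over all genes. These 4 were Pgd (-0.41), Slc25a1 (-0.31), Me1 (-0.31) and Acly (-0.29), the enzyme that supplies acetyl-CoA from citrate. Fasn, the fatty acid synthase (-0.01, limma adjusted p = 0.973), and Acaca, the acetyl-CoA carboxylase (0.06, limma adjusted p = 0.663), did not pass. With estradiol added 1 of 8 was lower, Acss2, which activates acetate (-0.41, limma adjusted p = 0.00381). All 6 estradiol arrays lay below every ablation array for Acss2. The median with estradiol added was -0.07 beside -0.023 over all genes.

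Regulators of these genes mostly did not pass. Of 13 tested, 2 were lower with ablation and 0 higher (median 0.06), a share near that of all genes. Insig1, which holds back the release of sterol regulatory element binding proteins and is itself one of their targets, was 0.31 lower on the log2 scale with ablation (limma adjusted p = 0.0121), and 0.41 lower again with estradiol added (limma adjusted p = 0.0255). It was the 1 regulator of 13 called with estradiol added. Ppard was 0.40 lower on the log2 scale with ablation (limma adjusted p = 0.00117). Srebf1 changed by 0.12 with ablation and -0.28 with estradiol added, and Srebf2 by 0.04 and 0.11, none past the threshold.

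Other desaturases and elongation enzymes changed by -0.52 to 0.39 with ablation (log2). Of 11 tested, 3 were lower and 1 higher (median -0.16). With estradiol added 0 passed in limma, and 1 was lower at an unadjusted p under 0.05. Hacd3 (-0.52) and Hacd2 (-0.48), dehydratases of the elongation cycle, and Elovl1 (-0.21) were lower. Elovl2, the elongase of longer polyunsaturated chains, was 0.39 higher on the log2 scale (limma adjusted p = 0.00702). Fads3, a relative of Fads1 and Fads2, changed by -0.34 with ablation, which did not pass (limma adjusted p = 0.072), and was lower with estradiol plus ablation than with sham (-0.53, limma adjusted p = 0.0222). Scd2 changed by -0.16 with ablation (limma adjusted p = 0.207).

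Of 19 other acyl-CoA synthetases and thioesterases tested, 5 were lower with ablation and 1 higher (median -0.15). With estradiol added 0 passed in limma, and 1 was higher at an unadjusted p under 0.05. Slc27a3 (-1.11), Acss3 (-0.85), Acsf2 (-0.82) and Acsbg1 (-0.70) were lower. The 1 that was higher was Acsl6, named after its value was seen, at 1.31 (limma adjusted p = 1.84e-05). Its sham mean of -2.23 lay under the filter level.

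The target of G0s2, the lipase Pnpla2, was also lower with ablation (-0.50, limma adjusted p = 0.000358) and changed by 0.24 with estradiol added, which did not pass (limma adjusted p = 0.355). Of 27 tested genes of triglyceride synthesis, lipid droplets and lipolysis, 9 were lower with ablation and 2 higher (median -0.12), and 1 was lower with estradiol added. Agpat2 (-0.93), an acyltransferase of glycerolipid synthesis, Plin3 (-0.41) and Fitm2 (-0.70) were among those lower. Gpam, the acyltransferase of the first step, was also called lower, but was above the filter level in 13 of 14 sham and 1 of 11 ablation arrays, so the size of its change is not given. The lower 1 with estradiol added was Lpin3 (-0.44, limma adjusted p = 0.00595). Plin2, the main coat protein of lipid droplets in many cells, changed by -0.01 and -0.05.

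Genes of mitochondrial fatty acid oxidation had the highest share of lower calls among these lists. With ablation 15 of 18 were lower and 0 higher (median -0.77), while with estradiol added 0 of 18 passed in limma (median -0.01), with 2 lower and 1 higher at an unadjusted p under 0.05. Acaa2 (-1.32), Decr1 (-1.12), Acadl (-1.01) and Etfdh (-0.95), those with the smallest adjusted p, had no overlap with sham arrays. Nor had Hadha, Hadhb, Slc25a20 and Acadvl, while the other genes of the list overlapped. The share of all genes without overlap was not counted. Of 10 peroxisomal genes, 5 were lower with ablation (median -0.32), with Crot, which moves medium-chain acyl groups to carnitine, at -1.59 (limma adjusted p = 3.12e-15). Crat, the carnitine acetyltransferase, was lower with ablation (-0.61) and again with estradiol added (-0.73, limma adjusted p = 0.0119).

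Of 7 genes of fatty acid uptake and binding, 5 were lower with ablation (median -0.37). Cd36, a fatty acid transporter that macrophages also express, was 4.38-fold lower (-2.13 ± 0.15 SE, limma adjusted p = 1.18e-13), and the binding protein Fabp3 was 2.41-fold lower (-1.27). Vldlr, a receptor for triglyceride-rich lipoproteins, was lower with ablation (-0.31, limma adjusted p = 0.00339) and higher with estradiol added (0.64, limma adjusted p = 3.2e-05), where all 6 estradiol arrays lay above every ablation array. Of 9 genes of phospholipid acyl chain release and remodelling, 2 were lower with ablation (median -0.17). These were Lpcat3, which places polyunsaturated chains into phospholipids (-1.12), and Pla2g4a, which releases arachidonic acid (-0.46), and 0 of 9 passed in limma with estradiol added, also at an unadjusted p under 0.05.

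**Figure D4:**
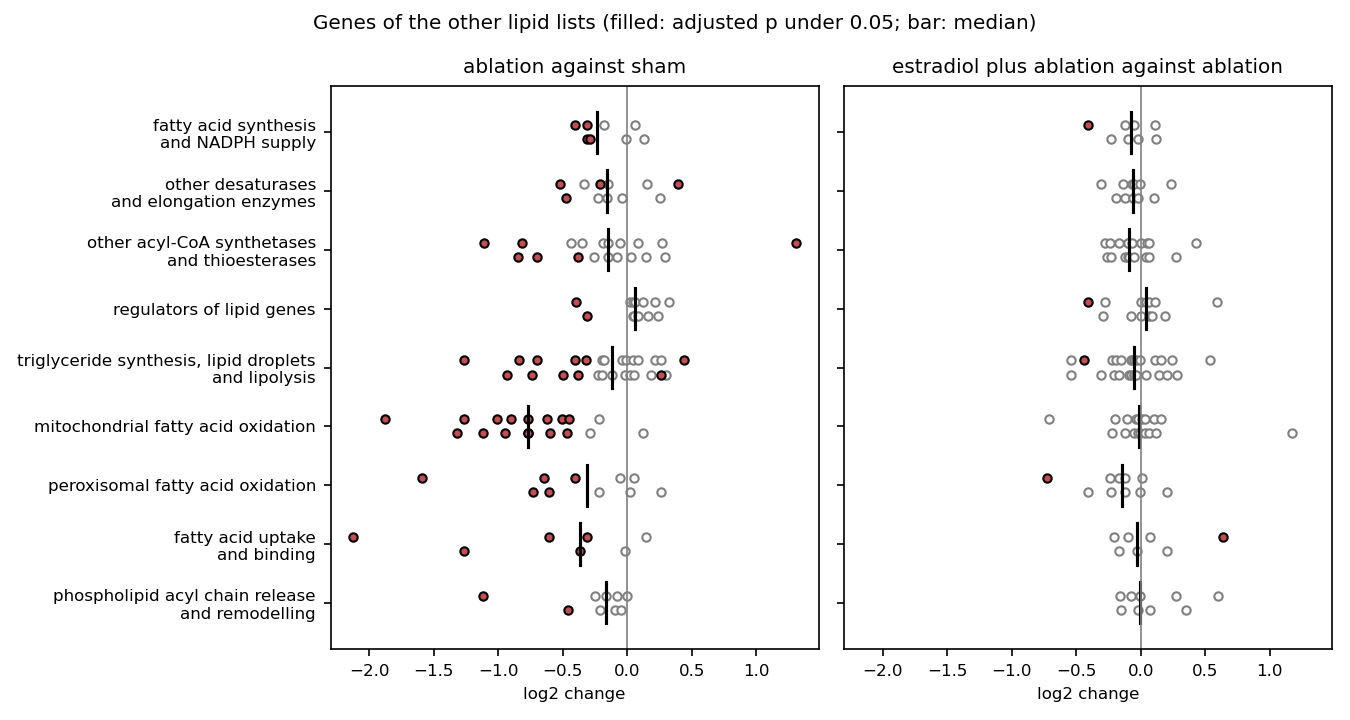
Log2 change of the tested genes of the other lipid lists with ablation against sham (left) and with estradiol added to ablation (right). Each point is a gene, filled where the adjusted p is under 0.05, and the bar is the list median. The mitochondrial oxidation list has a median of -0.77 on the left and -0.01 on the right.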

How the data were processed

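Total RNA of 31 rat testis samples was hybridised to Affymetrix arrays. The deposited values are MAS5 signals, per the submitters' processing notes, which the authors placed on a log scale read here as log2. The base and the scaling are not given in the sources used here. In the 6 estradiol arrays all 57 control probe sets were empty, and values carried fewer decimals than in the other arrays. Any difference in processing cannot be told apart from estradiol. Genes were named from the platform's annotation, with 20758 symbols updated through Entrez numbers, and 436 probe sets with several symbols and 9780 with none were left unnamed.

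Probe sets were fitted with limma 3.58.1 in R 4.3.3 over all 31 arrays in 3 groups, with a trend on mean signal and Benjamini-Hochberg adjustment over 21269 kept probe sets. The precision rests on the number of arrays. The fit was first tested on simulated data in which 200 probe sets had been changed. Members and lists were chosen with earlier results of these data known, and list genes were named as the up to 4 called with the smallest adjusted p, others after their values were seen or for their role. Likeness is Pearson's r after subtracting group means. The replicate numbers are not stated to pair animals, so they were not taken to pair the samples. Whether same-numbered arrays are paired cannot be decided from how their deviations from group means correlated. Correlations were -0.086 to 0.047 over 11 pairs and -0.182 to 0.059 over 6 (ablation against sham, estradiol against ablation), and -0.011 to 0.376 over 6, of which 3 were over 0.1 (estradiol against sham). Alternatives covered filter, scaling, groups fitted, trend, weights, replicate block, sham descriptions, arrays with spermatid RNA, single arrays, probe sets per gene and values under the filter level.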

Additional observations from a re-analysis of the deposited data

Results flagged for a closer look

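Of 39 sets of 4 to 10 arrays examined, 5 held an array whose gap to its neighbour was large for the range of its group, where chance gives about 1 in 20. The sets were the sham arrays of each description and the estradiol arrays. The 11 ablation arrays, a larger set, were not examined in this way. Estradiol array 4 was the highest for Elovl6 at -0.57, with the next far below it. In the second Elovl6 probe set, sham array 13 was the highest of those described as irradiated at -1.77, and sham array 3 the lowest of those described as control at -4.91. In an Acsl1 probe set that stayed under the filter level, estradiol array 6 was the lowest at -4.54. For Acsl3, sham array 3 was the lowest of those described as control at -1.90, with the next at -0.44. Except for Acsl3 without sham array 3, leaving out an array changed no member's call.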

How the results depend on the processing

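The counts of members called lower and higher (4 and 0, 1 and 1, 4 and 0) stayed within 1.5 times under every alternative that could be run. Fads1 kept its calls throughout, with changes of -1.63 to -1.54 with ablation and -1.09 to -0.91 with estradiol added, as did Fads2 with ablation (-1.27 to -1.15). G0s2 kept its calls at -2.28 to -2.09 and 0.82 to 1.05, the latter with an adjusted p in limma of up to 0.0469, reached with the replicate block (0.91). With the replicate block, the second Elovl5 probe set lost its call with ablation (-0.82, limma adjusted p = 0.0578), and it changed no other member's call. Scd lost both calls against the 4 sham arrays described as irradiated (-0.77 and -1.15, limma adjusted p = 0.144 and 0.0506), and moved to -0.34 and -0.40 with values raised to the filter level. The main probe sets of Scd, Elovl6 and Acsl1 did not pass a filter at the 60th percentile. Sham subsets do not enter estradiol against ablation. The causes were not tested. Signals near the filter level limit Scd, Elovl6 and Acsl1, and also Fads2 in the ablation and estradiol arrays.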
